A study of Mus musculus with 13 samples.

Results

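Matrix metalloproteinases (MMPs) are zinc enzymes that cut collagens, elastin, laminins and other proteins around cells. Most are made as inactive precursors whose propeptide must be removed, either by furin-like convertases inside the cell or by plasmin and other MMPs outside it. Tissue inhibitors of metalloproteinases (TIMPs) bind the active site of the mature enzymes, and TIMP2 also docks proMMP2 onto MMP14 at the cell surface, where MMP14 cuts it. In injured muscle these enzymes are known for clearing old matrix, letting inflammatory cells and myoblasts move, and releasing bound growth factors.

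The genes described here are 6 metalloproteinases (Mmp2, Mmp3, Mmp12, Mmp13, Mmp14 and Mmp19) and the 4 TIMPs, 10 of the 14911 genes in the deposited table. They were picked by name, and all 10 were found. The table held another 10 MMP genes, which are given further on. Each library came from the entire hamstring of a female C57BL/6 mouse, taken on day 4 after an intramuscular dose of 0.32 mg/kg cardiotoxin, which kills fibres and sets off regeneration. From the injury on, 4 mice received saline and 9 received dexamethasone, a synthetic glucocorticoid, at 10 mg/kg, both once daily into the peritoneum. All mice were injured, and no uninjured muscle was analysed here. The labels give no age.

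The submitters state that bone formed in the injured muscle of every dexamethasone mouse. They also excluded the saline mouse numbered 4 because it had formed bone, so the saline group was selected on bone. The drug and bone formation therefore cannot be told apart. The 13 libraries held 25531487 to 34942266 reads, 25531487 to 32537345 in saline and 28021111 to 34942266 in dexamethasone. Markers of muscle, stroma and inflammatory cells were all detected. Mature fibre markers reached 66296 to 159997 counts per 1e6 reads (CPM), fibroblast markers 2407 to 3379 and macrophage markers 1089 to 1676, and no listed marker that was measured was at 0 in every library. Among the listed cell types, 9 of 9 lymphocyte markers fell, and their summed level was 36.9 to 53.1 CPM in saline and 4.50 to 13.7 in dexamethasone. Of 10 mature fibre markers 4 fell and 0 rose, with sums of 107868 to 159997 CPM in saline and 66296 to 100842 in dexamethasone. Tendon markers summed to 732 to 926 CPM in saline and 1226 to 1583 in dexamethasone, without overlap, with 2 of 5 higher and 1 lower. Of 6 dendritic cell markers 3 fell and 0 rose, with sums of 47.8 to 74.3 CPM in saline and 36.9 to 58.9 in dexamethasone. Without dexamethasone library 4, 3 of them fell and 1 rose. Of all 14911 genes, 22.9% fell and 25.2% rose. The part of these cell types in the results for MMPs and TIMPs was not tested. In whole muscle, fewer cells of a type and less RNA per cell cannot be told apart.

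Saline library 3 stood apart in neutrophil and skeletal markers. Its 8 neutrophil markers, which include Mmp8, summed to 265.5 CPM, against 25.2 to 31.9 in the other saline libraries and 24.9 to 51.1 in dexamethasone. Its 7 measured osteoblast and chondrocyte markers summed to 75.1 CPM, against 34.9 to 44.3 in the other saline libraries and 33.5 to 46.5 in dexamethasone. Ibsp, which encodes a bone matrix sialoprotein, stood at 3.52 log2 CPM there and at -4.10 or less in the other saline libraries. The submitters kept this mouse as one without bone. Whether its skeletal markers go with early bone or with how the muscle was sampled was not tested, so the saline values that include it carry that doubt. Dexamethasone library 4 stood apart in Mmp19 and Timp4, as their values show. For the MMP, TIMP and overlapping genes, a call that either library changes is stated with and without it. Some values that move by over 1.5 times are given both ways too.

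Promoter sequence is shown for Mmp3, Mmp12 and Mmp13, where letters of the AP-1 motif were found, and for Timp1, the inhibitor with the largest change. AP-1 is a factor of Fos and Jun proteins. RefSeq (GRCm38.p6) gave promoters for 8 of the 10 genes, with entries for all but Mmp2 and Mmp19. In the 250 bases before each start, both strands were searched for an AP-1 motif (TGANTCA) and a TATA box (TATAAA), among others. Of 32851 promoters of that length, 6.75% held the AP-1 letters and 12.4% the TATA letters. The AP-1 letters were found 46 to 40 bases before the start of Mmp3 and 35 to 29 bases before the start of Mmp13. In Mmp12 they were found 44 to 38 bases before the second of its starts, and the window of the first held none. The 120 bases before each of these starts are printed on the plus strand, 5′ to 3′, with AP-1 and TATA letters in capitals. They lie at chr9:7445702-7445821 (Mmp3), chr9:7347254-7347373 (Mmp12), chr9:7272394-7272513 (Mmp13) and chrX:20870046-20870165 (Timp1).
Mmp3: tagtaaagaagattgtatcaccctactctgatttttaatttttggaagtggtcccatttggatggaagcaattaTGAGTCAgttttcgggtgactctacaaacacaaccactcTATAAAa
Mmp12: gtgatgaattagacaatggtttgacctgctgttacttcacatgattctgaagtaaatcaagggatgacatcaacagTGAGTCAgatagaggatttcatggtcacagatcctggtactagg
Mmp13: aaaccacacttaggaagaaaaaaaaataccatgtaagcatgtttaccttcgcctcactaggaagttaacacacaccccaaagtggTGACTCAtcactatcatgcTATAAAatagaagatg
Timp1: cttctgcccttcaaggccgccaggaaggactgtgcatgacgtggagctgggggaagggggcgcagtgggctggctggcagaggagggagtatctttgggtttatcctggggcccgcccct

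The Mmp3 and Mmp13 windows held a TATA match as well, 7 to 2 and 16 to 11 bases before the start. The Timp1 window held neither set of letters. An ETS motif (AGGAAG), which 29.5% of promoters held, matched at 2 positions each in Timp1 and Mmp13 and at 1 position each in Mmp3, Mmp12, Mmp14, Timp3 and Timp4. Letters of the glucocorticoid receptor palindrome (0.387% of promoters), its AGAACA part (16.1%), STAT (TTCNNNGAA, 7.02%) and C/EBP (TTGNNCAA, 5.65%) were found in 0 of the 8 genes' windows. A match is a run of letters only, and its absence covers only this window and these exact letters. Whether AP-1 acts on a gene, Timp1 included, was not tested.

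The comparison asked which of these transcripts differed between dexamethasone and saline muscle. Timp1, Mmp12 and Mmp19 rose, Mmp2 fell, and the other 6 did not pass the test, a limma model adjusted over all genes at 0.05. Of all 14911 genes, 48.1% passed, 25.2% higher and 22.9% lower, so 4 of 10 is near the background. The median log2 fold change of the 10 genes was -0.09, and that of all genes was 0.0071. Timp1, Mmp12 and Mmp19 were also the members whose groups did not overlap, a separation seen in 25.8% of all genes, with dexamethasone above in 12.9% and below in 12.9%. Levels are log2 CPM unless stated, and ± is the SD over 4 saline or 9 dexamethasone libraries.

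**Figure D1:**
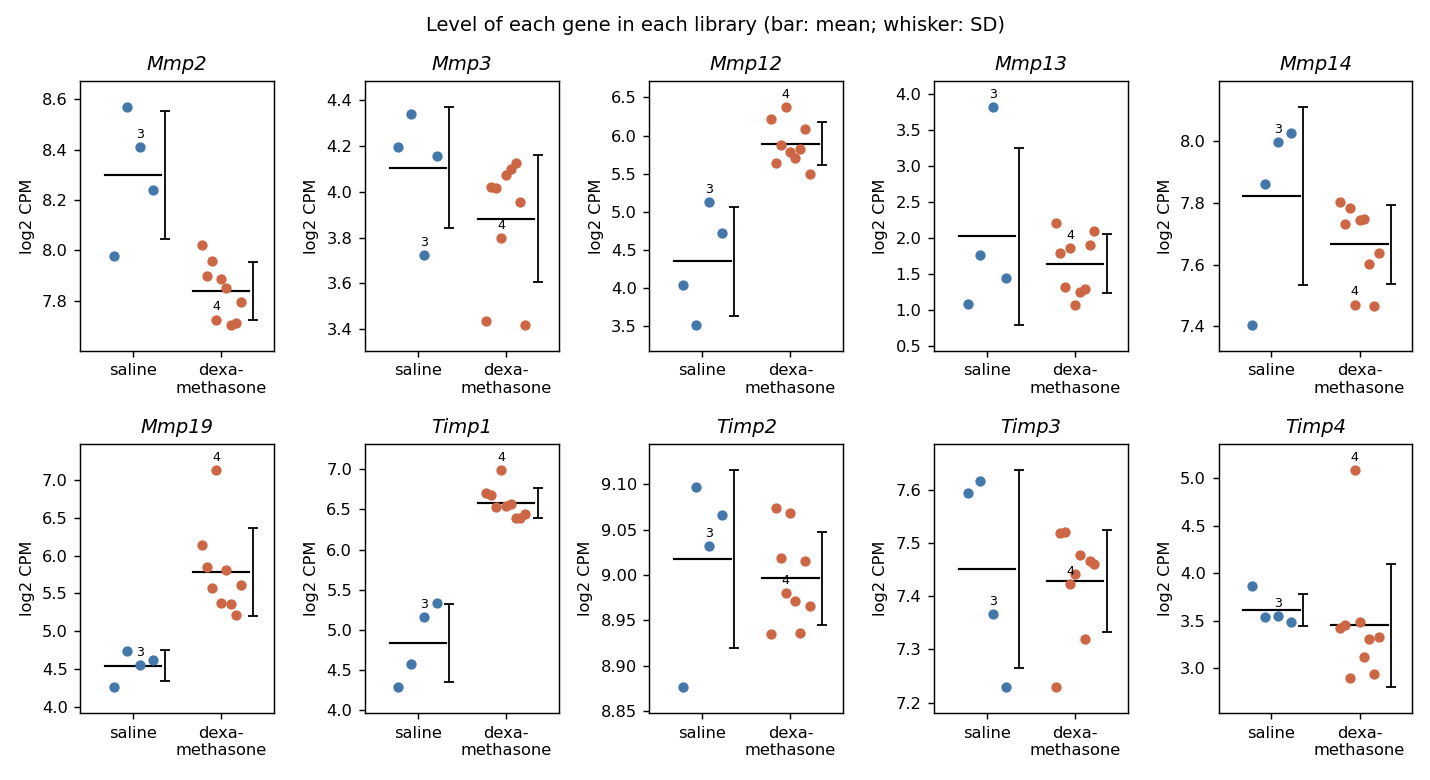
Level of each gene in log2 CPM (y axis, a separate scale per gene) in the 4 saline and 9 dexamethasone libraries, with points for libraries, bars for means and whiskers for SD. The numerals mark saline library 3, highest in Mmp13, and dexamethasone library 4, highest in Mmp19 and Timp4.

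Mmp2 encodes gelatinase A, which cuts denatured collagen and type IV collagen and is made mainly by fibroblasts. The gene lies on the plus strand of chromosome 8, from 92827291 to 92853420 (GRCm38, GENCODE annotation). It measured 7.98, 8.57, 8.41 and 8.24 in saline libraries 1, 2, 3 and 5, and 7.70 to 8.02 with a median of 7.85 in dexamethasone. Of the 9 dexamethasone libraries, 8 lay below the lowest saline library, and library 1 lay just above it. The mean fell from 8.30 ± 0.25 to 7.84 ± 0.11, a log2 fold change of -0.46 ± 0.089 (SE), or 1.38-fold lower (limma, adjusted p of 0.000563). Between 5924 and 9854 reads per library stood behind these values.

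Mmp14 encodes the membrane-anchored collagenase that activates proMMP2, on chromosome 14 (54431612 to 54445364, plus strand). Saline libraries measured 7.41, 7.86, 7.999 and 8.03, and dexamethasone libraries 7.47 to 7.80 with a median of 7.73. All dexamethasone libraries lay below saline libraries 2, 3 and 5 and above saline library 1. The log2 fold change was -0.16 ± 0.099 and did not pass (limma, adjusted p of 0.202). Without saline library 1 it was -0.30 and passed (limma, adjusted p of 0.0054). Without saline library 3 it was -0.099 and did not pass (limma, adjusted p of 0.485).

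The transcripts of collagenase 3, stromelysin 1 and macrophage elastase come from a cluster on chromosome 9, where Mmp13 (7272514 to 7283331), Mmp12 (7344381 to 7369499) and Mmp3 (7445822 to 7455975) lie on the plus strand. Mmp8 and Mmp27 of the same cluster follow further on. The 3 neighbours differed in outcome, since Mmp12 rose while Mmp3 and Mmp13 did not pass the test. The AP-1 letters printed above precede the starts of Mmp3 and Mmp13, but in Mmp12 only the second of its starts.

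Mmp12 encodes macrophage elastase, which cuts elastin and is known as a product of macrophages. It measured 4.04, 3.52, 5.13 and 4.72 in saline and 5.50 to 6.37 with a median of 5.82 in dexamethasone. All 9 dexamethasone libraries lay above the highest saline library, which was library 3. The mean rose from 4.35 ± 0.71 to 5.89 ± 0.28, a log2 fold change of 1.54 ± 0.22 or 2.90-fold (limma, adjusted p of 5.32e-05). Reads per library ran from 276 to 2602. The summed macrophage markers were 1089 to 1676 CPM in saline and 1310 to 1466 in dexamethasone, with 3 of 10 markers higher and 1 lower. Without saline library 3 the counts were 3 higher and 0 lower. The part of macrophages in the Mmp12 result was not tested.

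Mmp3 encodes stromelysin 1, which cuts proteoglycans and fibronectin and activates other proMMPs. Saline libraries measured 4.20, 4.34, 3.73 and 4.16, and dexamethasone libraries 3.42 to 4.13 with a median of 4.02. The groups overlapped, with 2 dexamethasone libraries below the lowest saline library. The log2 fold change of -0.22 ± 0.14 did not pass (limma, adjusted p of 0.215). Without saline library 3 it was -0.35 and did not pass either (limma, adjusted p of 0.0650).

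Mmp13 encodes collagenase 3, the fibrillar collagenase of mouse cartilage and bone. It measured 1.08, 1.76, 3.82 and 1.44 in saline and 1.08 to 2.21 with a median of 1.80 in dexamethasone. Saline library 3 held 403 reads of it and stood alone, and the other 3 saline libraries lay within the dexamethasone range. The log2 fold change was -0.38 ± 0.37 over all libraries (limma, adjusted p of 0.422) and 0.22 without saline library 3 (limma, adjusted p of 0.485). The same library had the high neutrophil and skeletal marker sums given above, and their part in this value was not tested.

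Mmp19 encodes a soluble enzyme of basement membranes that is outside the chromosome 9 cluster, on chromosome 10 (128790910 to 128800824, plus strand). It measured 4.26, 4.74, 4.55 and 4.62 in saline and 5.21 to 7.13 with a median of 5.61 in dexamethasone. All 9 dexamethasone libraries lay above saline, and library 4, at 7.13, lay well above the other 8. The mean rose from 4.54 ± 0.21 to 5.78 ± 0.58, a log2 fold change of 1.24 ± 0.26 or 2.37-fold (limma, adjusted p of 0.000961). Without dexamethasone library 4 the log2 fold change was 1.07, with a smaller p (limma, adjusted p of 2.69e-05).

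Timp1 encodes the inducible inhibitor of the family, which inhibits most soluble MMPs and only weakly the membrane-anchored ones. It lies on the X chromosome (20870166 to 20874735, plus strand). It measured 4.29, 4.58, 5.15 and 5.33 in saline and 6.40 to 6.99 with a median of 6.54 in dexamethasone. The lowest dexamethasone library lay above the highest saline library by more than the SD of either group. The mean rose from 4.84 ± 0.49 to 6.58 ± 0.19, a log2 fold change of 1.75 ± 0.15 or 3.35-fold, the largest of the 10 (limma, adjusted p of 5.92e-07). Reads ran from 501 to 3647 per library.

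Timp2 encodes the widely made inhibitor that also serves MMP14 in activating proMMP2, on the minus strand of chromosome 11 (118301069 to 118355740). Saline libraries measured 8.88, 9.10, 9.03 and 9.07, and dexamethasone libraries 8.94 to 9.07 with a median of 8.98. Every dexamethasone library lay inside the saline range. The log2 fold change was -0.02 ± 0.052, from 12088 to 18026 reads per library (limma, adjusted p of 0.759).

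Timp3 encodes the inhibitor that binds to the matrix itself and also inhibits ADAM proteases, on chromosome 10 (86300372 to 86349506, plus strand). It measured 7.59, 7.62, 7.37 and 7.23 in saline and 7.23 to 7.52 with a median of 7.46 in dexamethasone. The groups overlapped over most of their ranges, and the log2 fold change was -0.02 ± 0.071 (limma, adjusted p of 0.822). Without saline library 3 it was -0.051 (limma, adjusted p of 0.640).

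Timp4 encodes the inhibitor known mainly from heart, muscle and fat, on the minus strand of chromosome 6 (115241892 to 115252205). Saline libraries measured 3.86, 3.54, 3.55 and 3.49, and dexamethasone libraries 2.89 to 5.09 with a median of 3.33. Of the 9 dexamethasone libraries, 8 lay below every saline library, though dexamethasone library 5 and saline library 5 nearly tied, both at 3.49. Dexamethasone library 4, at 5.09, lay above every saline library. The log2 fold change over all libraries was -0.16 ± 0.29 (limma, adjusted p of 0.674). Without dexamethasone library 4 it was -0.36 and passed as lower (limma, adjusted p of 0.0197). On the 8 libraries whose numbers occur in both groups, which also leave out that library, it was -0.29. There it did not pass, without or with a replicate block (limma, adjusted p of 0.114 and 0.0893).

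All of the Timp genes but Timp2 lie inside a synapsin gene on the other strand, Timp1 in Syn1, Timp3 in Syn3 and Timp4 in Syn2, and Timp2 overlaps Cep295nl on its own strand. The libraries were stranded, but the strand setting of the counting is not given in the sources used here. Syn1 had 27 to 98 reads per library and Cep295nl 12 to 63, far under Timp1 and Timp2. Syn1 rose by 0.50 ± 0.19 on the log2 scale (limma, adjusted p of 0.0401), a call lost without saline library 1 (0.27) or 5 and without dexamethasone library 1, 3, 4, 5, 7 or 9. Cep295nl rose by 0.94 ± 0.27 (limma, adjusted p of 0.00903), while Syn3 at 0.40 and Syn2 at 0.02 did not pass. Without saline library 3, Syn3 passed at 0.60 (limma, adjusted p of 0.0330). Syn2 stood at 3.00 ± 0.17 log2 CPM in saline and at 2.64 to 3.41 in dexamethasone, not far under Timp4. How far reads of these pairs mix was not tested.

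Levels between genes were compared as reads per kb of exon per 1e6 reads. The length is that of all annotated exons of a gene merged, 7237 bases for Mmp12 and 888 for Timp1. It can exceed the length of the transcripts present, so the orders, shares and ratios between genes depend on it. In saline the order began with Timp2 at 133 ± 8.81, then Mmp2 at 94.5 ± 16.2, Mmp14 at 38.5 ± 7.04, Timp1 at 33.5 ± 10.9 and Timp3 at 21.6 ± 2.74. The saline ranges of Timp2 and Mmp2 did not overlap, whereas Mmp14 overlapped Timp1, and Timp1 overlapped Timp3. Mmp3 at 9.65 ± 1.65 and Mmp19 at 6.63 ± 0.904 overlapped as well, through saline library 3. Without that library Mmp3, from 9.88 to 11.2, lay above Mmp19, from 5.40 to 7.54. Mmp12 at 3.08 ± 1.45, Mmp13 at 2.08 ± 2.14 and Timp4 at 2.08 ± 0.257 formed the low end, and their ranges overlapped. The Mmp13 mean rested on saline library 3, at 5.28, and was 1.02 ± 0.237 without it. Its range, then 0.785 to 1.26, no longer reached those of Timp4 or Mmp12.

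In dexamethasone Timp1 was second on the same scale at 109 ± 15.3, behind Timp2 at 131 ± 4.70 and ahead of Mmp2 at 68.1 ± 5.40. Timp1 stayed below Timp2 in 8 of 9 libraries, and in library 4 it was above it, at 143 against 130. The Timp1 range, from 94.8 to 143, lay wholly above that of Mmp2, from 61.9 to 77.1. Mmp14 at 34.2 ± 2.97 and Timp3 at 21.2 ± 1.35 followed, then Mmp19 at 17.0 ± 9.02, whose range reached into that of Timp3. Without dexamethasone library 4, Mmp19 was at 14.1 ± 3.10 and its range still reached that of Timp3. Mmp12 at 8.34 ± 1.69 and Mmp3 at 8.30 ± 1.44 overlapped, and Timp4 at 2.08 ± 1.40 and Mmp13 at 1.21 ± 0.341 were again lowest. Without library 4, Timp4 was at 1.62 ± 0.251 and still overlapped Mmp13.

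The make-up of the inhibitor transcripts differed accordingly. Timp1 made up 17.4% ± 4.63 of the summed per-length TIMP level in saline, from 13.0% to 22.3%, and 41.2% ± 3.16 in dexamethasone, from 37.8% to 47.8%. The share of Timp2 was 70.0% ± 2.39 in saline and 49.99% ± 2.97 in dexamethasone, although its own level did not pass the test. Among the 16 measured MMPs, the share of Mmp2 was 50.6% ± 3.56 in saline and 40.9% ± 2.43 in dexamethasone. The share of Mmp14 was 20.6% in both groups, and that of Mmp19 was 3.56% in saline and 10.0% in dexamethasone, with 22.04% in library 4 and 8.51% ± 1.37 over the other 8. The summed TIMP level over the summed MMP level was 1.03 ± 0.097 in saline, from 0.943 to 1.14, and 1.58 ± 0.075 in dexamethasone, from 1.44 to 1.67. These shares and ratios are descriptions of transcripts, with no test, and say nothing of protein or enzyme activity.

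**Figure D2:**
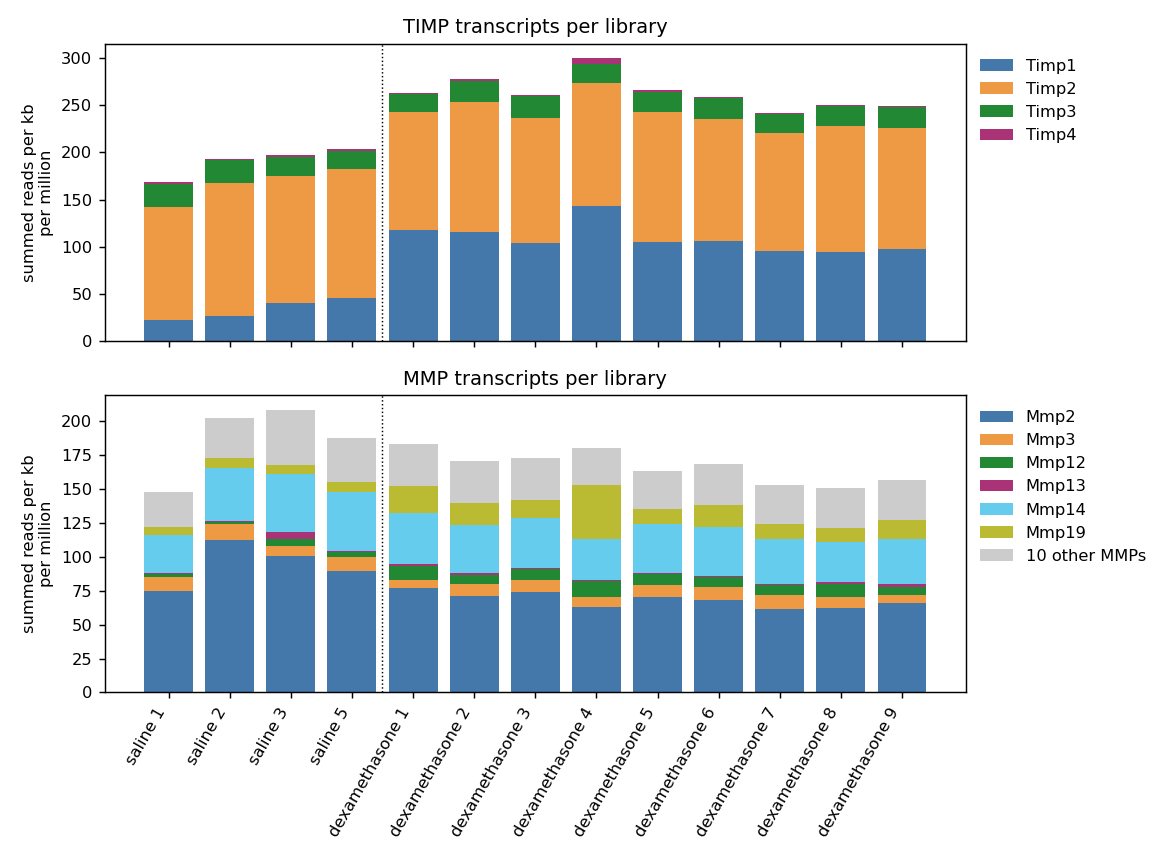
Per-length levels (y axis, summed reads per kb of exon per 1e6 reads) of the TIMPs, above, and of the MMPs, below, stacked by gene in each of the 13 libraries (x axis), with a dotted line between saline and dexamethasone. The Timp1 layer spans 21.9 to 45.2 in saline and 94.8 to 143 in dexamethasone, while the Timp2 layer stays between 121 and 141.

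Of 17 other MMP genes on the list, 10 were measured, of which 3 rose, 3 fell and 4 did not pass. Over all genes 25.2% rose and 22.9% fell, so these counts are near the background. Mmp28, an epidermal and macrophage enzyme also called epilysin, rose 1.64-fold (log2 fold change 0.72 ± 0.15, limma, adjusted p of 0.00129). Mmp27, a little-studied member of the chromosome 9 cluster, rose 1.67-fold on 25 to 111 reads per library (log2 fold change 0.74 ± 0.20, limma, adjusted p of 0.00557). Without saline library 1, where it was lowest, its log2 fold change was 0.47 (limma, adjusted p of 0.0217). All 9 dexamethasone libraries lay above saline for both genes.

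Mmp25 encodes a lipid-anchored enzyme known from leukocytes. It fell 2.81-fold, from 0.97 ± 0.18 to -0.52 ± 0.38, on only 15 to 75 reads per library (limma, adjusted p of 4.72e-05). Mmp11, a stromal enzyme also called stromelysin 3, fell 1.38-fold (log2 fold change -0.46 ± 0.10, limma, adjusted p of 0.00159). For both genes all dexamethasone libraries lay below saline. Mmp16, a membrane-anchored relative of Mmp14, fell 1.54-fold with overlapping groups, on 20 to 57 reads per library (log2 fold change -0.62 ± 0.20, limma, adjusted p of 0.0181). The Mmp16 call was lost with library weights (-0.51, limma, adjusted p of 0.0656), and on the log2 of CPM plus 1 the value was -0.34.

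Mmp8 encodes neutrophil collagenase and is itself one of the neutrophil markers. It measured -0.56, -2.78, 2.77 and -1.17 in saline and 0.58 to 2.43 in dexamethasone, on 3 to 194 reads per library. It rose by 1.72 ± 0.66 on the log2 scale with all libraries (limma, adjusted p of 0.0400). That call was lost without saline library 1, 2 or 5 and without dexamethasone library 1, 2, 4, 6, 8 or 9, and the value ran from 0.94 to 2.79 with libraries left out singly. The highest value, 2.79, came without saline library 3 (limma, adjusted p of 8.27e-05). The whole neutrophil list moved with that library. Of its 8 markers, Mmp8 included, 1 rose and 2 fell with all libraries (median log2 fold change 0.04), and 3 rose and 0 fell without saline library 3 (median 1.04). The part of neutrophils in the Mmp8 value was not tested.

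Mmp9 encodes gelatinase B of neutrophils and macrophages, and it did not pass (log2 fold change -0.33 ± 0.32, limma, adjusted p of 0.415). It measured 2.95, 2.82, 5.23 and 3.42 in saline, so saline library 3 was again highest, and without that library the log2 fold change was 0.21. The remaining ones, Mmp15, Mmp17 and Mmp23, had log2 fold changes of -0.07, 0.06 and -0.05 and did not pass.

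**Figure D3:**
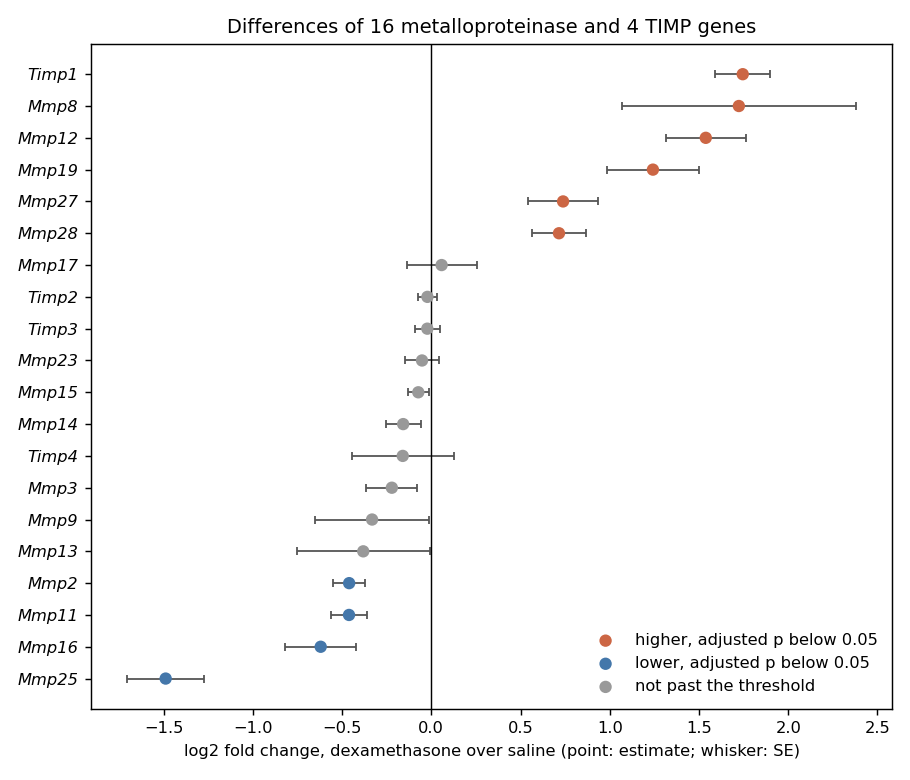
Log2 fold change of dexamethasone over saline (x axis) for the 16 MMP and 4 TIMP genes, ordered by size, with the limma estimate as a point and its SE as a whisker. Orange points passed as higher, blue points as lower and grey points did not pass; Timp1 lies at 1.75 and Mmp25 at -1.49.

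Genes that act on MMPs were examined as a list of activating proteases, other inhibitors, clearance receptors and docking partners. Of 20 measured, 12 rose and 0 fell, with a median log2 fold change of 0.44, where 25.2% of all genes rose and 22.9% fell. Pcsk5 and Furin, convertases that remove propeptides such as that of MMP14, rose 3.84-fold and 1.36-fold (limma, adjusted p of 2.29e-07 and 5.52e-06). Cd44, a hyaluronan receptor that docks MMPs, rose 2.12-fold, Lrp1, an endocytic receptor that clears MMP and TIMP complexes, rose 1.59-fold, and Itgav, an integrin chain, rose 1.38-fold. Without dexamethasone library 4 the counts were 13 higher and 1 lower.

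Among 22 matrix proteins that MMPs are known to cut, 11 rose and 1 fell, with a median log2 fold change of 0.22. The shares over all genes were 25.2% higher and 22.9% lower, and no test was made over the list. Lum, which encodes the collagen-binding proteoglycan lumican, was the one that fell, by 1.85-fold (limma, adjusted p of 4.50e-07). Spp1, which encodes osteopontin, rose 3.25-fold, Vcan, the proteoglycan versican, 2.46-fold, and Tnc, tenascin C, 2.30-fold. Eln, the elastin that MMP12 cuts, rose 1.94-fold and Fbn1, fibrillin, 1.71-fold. The fibrillar collagen genes Col1a1 and Col3a1 had log2 fold changes of -0.15 and -0.14 and did not pass.

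Another list held cytokine and transcription factor genes that act on MMP or TIMP transcription. Of 22 measured, 14 rose and 0 fell, with a median log2 fold change of 0.79. Over all genes 25.2% rose and 22.9% fell. Lif, a cytokine of the IL-6 family, rose 6.37-fold (limma, adjusted p of 3.32e-07). Of the AP-1 genes, Junb rose 3.36-fold, Fos 2.66-fold and Fosl2 1.70-fold, while Jun, at 0.0019 on the log2 scale, did not pass. Runx1 rose 1.92-fold and Ets2, an ETS factor, 1.76-fold.

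TIMPs, Timp3 above all, also inhibit some ADAM and ADAMTS proteases, which shed membrane proteins or cut proteoglycans. Of 11 measured ADAM and ADAMTS genes, 10 rose and 1 fell, with a median log2 fold change of 0.43. Over all genes 25.2% rose and 22.9% fell. The count is of listed genes of these families, whether or not TIMPs inhibit each. Adam12, an enzyme of fusing myoblasts and stromal cells, rose 2.07-fold, and Adamts1, an enzyme that cuts versican, rose 1.95-fold (limma, adjusted p of 1.98e-07). The proteoglycan-cutting enzymes Adamts4 and Adamts5 rose 1.83-fold and 1.73-fold. Adam15 and Adam10 rose 1.35-fold and 1.29-fold. Adam33 fell 1.17-fold, a call lost without saline library 3 and also without dexamethasone library 4. With both of these libraries left out, 13 regulators rose and 0 fell, 9 substrates rose and 1 fell, 14 cytokine and factor genes rose and 0 fell, and 10 of these proteases rose and 0 fell.

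Mice of the same group differed among themselves, and the deviations of each library from its group mean show which genes varied together. These correlations are over 13 libraries that share depth scaling and tissue, and are given as a description. Mmp2 and Mmp14 varied together (r of 0.77), less so without saline library 1, where both were low (r of 0.51). Mmp12 and Timp1 varied together (r of 0.73), with values of 0.68 without saline library 3 and 0.68 without dexamethasone library 4. Mmp19 and Timp4 had the highest r, 0.82, which rested on dexamethasone library 4 and was 0.14 without it. Leaving out that library raised other pairs, Mmp14 with Timp1 from 0.58 to 0.86, Mmp2 with Mmp19 from 0.16 to 0.69 and Mmp14 with Mmp19 from 0.02 to 0.62. Mmp14 with Timp1 was 0.18 without saline library 1. Mmp3 ran against Mmp13 (r of -0.74), and Timp3 against Mmp12 (r of -0.69) and Timp1 (r of -0.65).

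**Figure D4:**
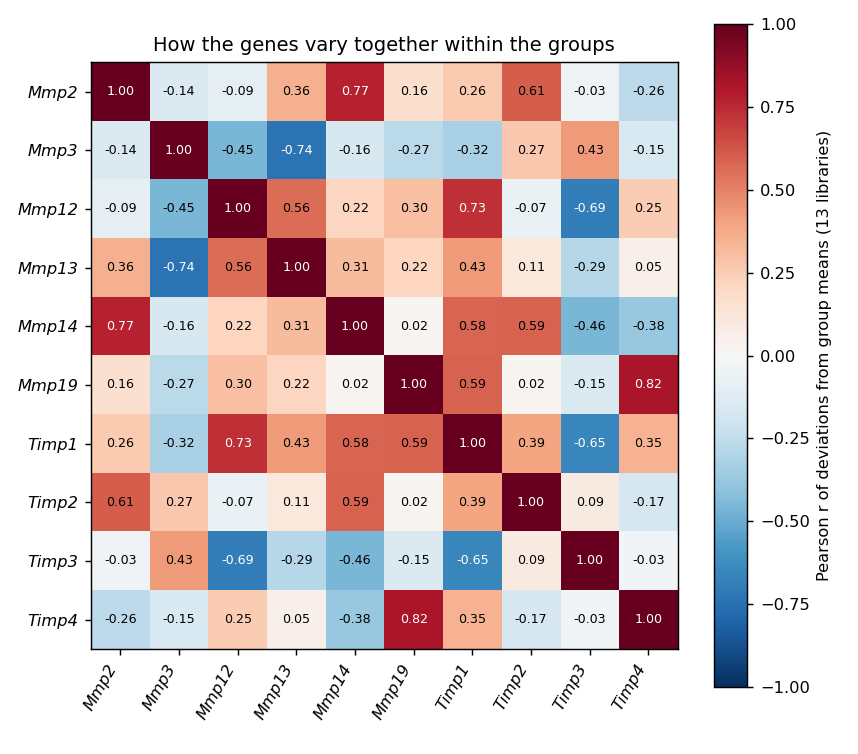
Pearson r between each pair of the 10 genes (both axes), from deviations of the 13 libraries from their group means, with red for positive and blue for negative values. Mmp2 with Mmp14 (0.77), Mmp12 with Timp1 (0.73) and Mmp19 with Timp4 (0.82) have the 3 highest values, the last resting on dexamethasone library 4, without which Mmp14 with Timp1 is highest (0.86).

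The same measure was taken against 12235 genes to name the 3 closest to each member. Picking the highest of so many values over only 13 libraries gives high r for unrelated genes too. No test was made of them. Mmp2 lay closest to Col14a1 (0.92), a fibril-associated collagen, and to Fn1 (0.90), fibronectin, and Nynrin (0.89). Mmp14 lay closest to Mmp23, Sdc1, the proteoglycan syndecan 1, and Plscr3, with r of 0.94 for each. Timp1 lay closest to Plaur (0.95), the urokinase receptor, which rose 2.09-fold, then to Pqlc3 and Litaf (0.94 each). Mmp12 lay closest to Riox1 (0.90), Rab29 (0.88) and Pbdc1 (0.87).

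For Mmp13 the closest were Gfod1 (0.91), Mmp9 (0.87) and S100a9 (0.87), the latter a neutrophil protein gene, and these became 0.72, 0.47 and 0.55 without saline library 3. Mmp19 lay closest to Adarb1, Esd and Il6ra (0.91 each), and Timp4 to Arrdc2 (0.96), Cd163 (0.94) and Slc43a3 (0.94). Without dexamethasone library 4 the former were 0.64, 0.65 and 0.60 and the latter 0.71, 0.61 and 0.49. Mmp3 lay closest to Bbs1 (0.82), Cygb (0.82) and Btd (0.81), Timp2 to Rin1 (0.95), Kirrel (0.92) and Slc39a9 (0.92), and Timp3 to Vps13b, Naa30 (0.89 each) and Icmt (0.88).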

How the data were processed

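RNA was polyA-enriched and made into stranded libraries, per the labels' protocols. Per the submitters' processing notes, featureCounts 2.0.1 counted reads on mm10, and limma 3.50.1 was used. Aligner, low-gene filter and the strand setting of the counting: not given in the sources used here. Values were deposited as log2 CPM with an offset of 0.5 reads, scaled by an effective size per library, from which 100% of values gave whole reads within 0.01. The authors also deposited p-values and log2 fold changes of their own comparison. In the authors' deposited table, adjusted p was under the threshold in 7010 genes, 6944 of them also here in the same direction, and 4 of the 10 members. The values of the excluded saline mouse (1 column) were not used.

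The comparison was a limma 3.58.1 model (R 4.3.3) on the log2 values, two-sided, with variances moderated along a trend with expression and Benjamini-Hochberg adjustment over 14911 genes at 0.05. Reads per library were compared between groups by an exact permutation test over 715 splits, two-sided (p of 0.485). Fold changes of low genes depend on the 0.5 offset. Exon lengths and coordinates came from GENCODE on GRCm38 and promoters from RefSeq on GRCm38.p6. Motifs were searched on both strands. The AP-1 letters overlapped no TATA match. Likeness was computed for genes averaging at least 1 log2 CPM.

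The members and all lists were chosen with earlier results of these data known. Named genes were the members, the measured other MMPs, the overlapping genes, up to 6 called genes of smallest adjusted p from each further list and the 3 genes most like each member. A gene that this rule picked is not reported here. Col1a1, Col3a1, Jun, Adam33, Plaur and Ibsp were named after their values were seen. On simulated data of 14911 genes for this comparison, the test found 100 of 100 genes given a log2 change of 1 and 66 of 100 given 0.5, with 12 false among 178 calls. The simulation gave all genes the same dispersion and changed only genes averaging at least 1 log2 CPM. Its rates need not hold for genes that varied more, such as Mmp12, Mmp13 and Mmp8 (saline SD of 0.71, 1.23 and 2.33). The 42 same-group pairs of libraries differed by a chi-square per gene of at least 7.21, so none was treated as a copy of another. The labels number the mice separately. Figures were drawn with matplotlib 3.10.9.

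Alternatives were the other deposited table (14970 genes, normalised with the excluded mouse), log2 of CPM plus 1 and plus 0.1, filters on mean log2 CPM of at least 0 and 1, quantile normalisation, median centring, library weights, robust moderation, no trend, voom on recovered reads, a replicate block and single libraries dropped. Dropping saline library 3 with dexamethasone library 4 was chosen after seeing the data.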

Additional observations from a re-analysis of the deposited data

Results flagged for a closer look

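In 40 groups of values (20 genes in each treatment group), 6 libraries lay far from the other libraries of their group, measured as the gap to the nearest library over the whole range. Chance alone gives about 1 in 20 groups. The groups share their libraries and some genes vary together, so the flags are not independent and their number cannot be judged against that rate.

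Dexamethasone library 4 accounts for 3 of them. Its Mmp19 level was 7.13 log2 CPM, against 5.21 to 6.14 in the other dexamethasone libraries. Its Timp4 level was 5.09, against 2.89 to 3.49. Its Mmp15 level was 5.68, against 5.92 to 6.05. Mmp19 and Timp4 were thus high and Mmp15 low in the same library. The other 8 dexamethasone libraries also lay above saline for Mmp19.

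Saline library 1 accounts for 2. Its Timp4 level was 3.86, against 3.49 to 3.55 in the other saline libraries, and its Mmp27 level was -0.013, against 0.98 to 1.11. In dexamethasone library 1 the Mmp11 level was 2.38, against 2.72 to 2.90. Saline library 3 was not among them, although it was the highest saline library for Mmp8, Mmp9, Mmp12 and Mmp13. The flagged gaps were 0.83 and 0.88 of the range in saline and 0.52 to 0.73 in dexamethasone. A gap therefore had to be larger to be flagged among 4 saline than among 9 dexamethasone libraries. The missing flag does not place saline library 3 nearer to its group than dexamethasone library 4.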

How the results depend on the processing

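Each member was refitted under 27 alternatives. Timp1 (1.56 to 1.91), Mmp12 (1.26 to 1.80), Mmp19 (1.07 to 1.31) and Mmp2 (-0.57 to -0.36) kept direction and call in all of them, with adjusted p (limma) of at most 0.0267, reached by Mmp2. Timp2 (-0.069 to 0.041), Timp3 (-0.096 to 0.033), Mmp3 (-0.35 to -0.14) and Mmp13 (-0.84 to 0.22) passed in 0. With libraries left out singly, Mmp14 ran from -0.30 to -0.089, passing without saline library 1, and Timp4 from -0.36 to -0.076, passing without dexamethasone library 4. With saline library 3 and dexamethasone library 4 both left out, Timp4 was -0.38 (limma, adjusted p of 0.0332). The members called were 4 or 5, and genes called in all ran from 5959 to 7229. Of the other MMPs, 3 were called (2 higher, 1 lower) among those averaging at least 1 log2 CPM, where fewer were tested, and 4 (2 higher, 2 lower) with library weights. No called value changed direction.

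Replicate numbers are shared between saline and dexamethasone mice, but same-numbered libraries did not deviate together (correlations of 0.091, -0.065, -0.073 and 0.047, and 2 of 4 saline libraries correlated best with their own number). With the replicate block on 8 libraries 5959 genes and 4 members were called, against 6124 genes on the same libraries without the block. Low depth limits Mmp8, Mmp16, Mmp25 and Mmp27, whose fold changes rest on few reads. Single libraries decided the calls of Mmp14, Timp4 and Mmp8. They also decided the signs of Mmp13, Mmp9, Mmp17, Mmp23, Timp2 and Timp3, which did not pass. Mmp8 was also lost with library weights, robust moderation, no trend and log2 of CPM plus 1, and on the 8 libraries with or without the replicate block.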
